A study of Mus musculus with 16 samples.

Results

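The 31 genes described here encode proteins that carry glucose into cells, break it down to pyruvate, turn pyruvate into lactate and back, move lactate across membranes, and store glucose as glycogen. They were listed by name and not by a cutoff on a measured value, but with earlier results of these data known. All 31 were found among the 48795 gene identifiers of a striatal RNA-seq experiment. The genes cover 5 steps, with 2 glucose transporters, 11 genes of upper glycolysis, 6 of lower glycolysis, 5 of lactate formation and transport, and 7 of glycogen metabolism.

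In the brain, glucose enters astrocytes mainly through the transporter GLUT1 and neurons mainly through GLUT3, and glycolysis then splits it to pyruvate in the cytosol. Astrocytes hold most of the glycogen of the adult brain, and aldolase C has long been used as an astrocyte enzyme. Lactate made from pyruvate crosses membranes through monocarboxylate transporters, of which MCT1 and MCT4 are usually ascribed to glia and vessels and MCT2 to neurons.

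RNA was sequenced from the striatum of 8 CAG-Cas9-EGFP mice, which express Cas9 and EGFP from a promoter active in most cell types. The 4 Crym KO mice received AAV2/5 with sgRNAs against Crym, the gene of the cytosolic protein μ-crystallin, in the central striatum of both sides, and the 4 Control mice, labelled WT, received AAV2/5 with an sgRNA against EGFP. Control mice therefore also carried Cas9, an sgRNA and virus. All 8 mice also received astrocytic RiboTag, an HA-tagged ribosomal protein under the astrocyte promoter GfaABC1D, whereas the sgRNAs were under U6, which is not specific to astrocytes. Each mouse gave an IP library, made from RNA pulled down with an HA antibody, and an Input library, made from RNA of the same striatum without the pull-down. There were thus 4 groups of 4 libraries, namely Crym KO IP, Control IP, Crym KO Input and Control Input. IP was set against Input to ask which transcripts were enriched on tagged ribosomes, and Crym KO against Control to ask what the loss of Crym changed in either fraction.

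Counted reads per library ranged between 52632309 and 62596661 in IP and between 39421209 and 54235574 in Input. Crym fell in Crym KO IP (log2 ratio -1.52, adjusted p = 0.000514 by limma-voom with Benjamini-Hochberg adjustment over all genes tested), while in Input its log2 ratio was -0.34 (adjusted p = 0.730 by limma-voom). All 14 astrocyte markers rose in IP, with a summed level of 25190 to 29110 CPM (counts per 1000000, after scaling of library sizes) in Crym KO IP and 19030 to 26290 CPM in Control IP, against 6921 to 7190 CPM in Crym KO Input and 6671 to 6954 CPM in Control Input. The lowest astrocyte sum in IP was that of Control mouse 2, and the other 7 IP libraries began at 25070 CPM. Neuronal RNA was present in IP too. The summed level of 10 neuronal markers was 7189 to 8874 CPM in IP and 6736 to 7360 CPM in Input, and all 10 markers of medium spiny neurons rose in IP with a median log2 ratio of 0.54. All 5 ependymal markers rose as well (median 2.25). The median was 0.23 for oligodendrocyte markers, -0.65 for their precursors, -0.49 for mural cells, -4.79 for microglia, -3.84 for endothelium and -2.64 for nuclear RNAs. The part of these marker levels in the results below was not tested.

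The 31 genes took a larger share of the counts in IP than in Input. The share was 1.202% to 1.236% in Crym KO IP and 1.182% to 1.245% in Control IP, against 0.681% to 0.703% in Crym KO Input and 0.695% to 0.731% in Control Input. All 31 passed the filter on low counts. In limma-voom over the 16 libraries, 26 of the 31 rose in IP and 5 fell at an adjusted p below 0.05, against 40.3% of all 20645 genes tested that rose and 42.3% that fell, and against 48.2% of protein-coding genes that rose. The median log2 ratio of IP over Input was 0.70 over the 31 genes, against -0.02 over all genes tested and 0.10 over protein-coding genes. 8 of the 31 were more than 2-fold higher in IP, against 7.59% of all genes tested. In these bulk samples, fewer cells of a type and less RNA per cell cannot be told apart.

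Each genotype taken alone gave nearly the same counts. In Crym KO mice, 26 genes rose in IP and 4 fell, against 36.2% and 37.9% of all genes tested. In Control mice, 26 rose and 4 fell, against 36.7% and 38.5%. The gene without a call in either genotype was Slc16a3, whose call depends on the setting. In 28 of the 31 genes the 8 IP libraries and the 8 Input libraries did not overlap, and the exceptions were Slc2a1, Slc2a3 and Slc16a3. The share of all genes tested without such overlap was not counted, so the 28 cannot be read as particular to these genes. In the fit over both genotypes, 40.3% of all genes tested rose and 42.3% fell.

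**Figure D1:**
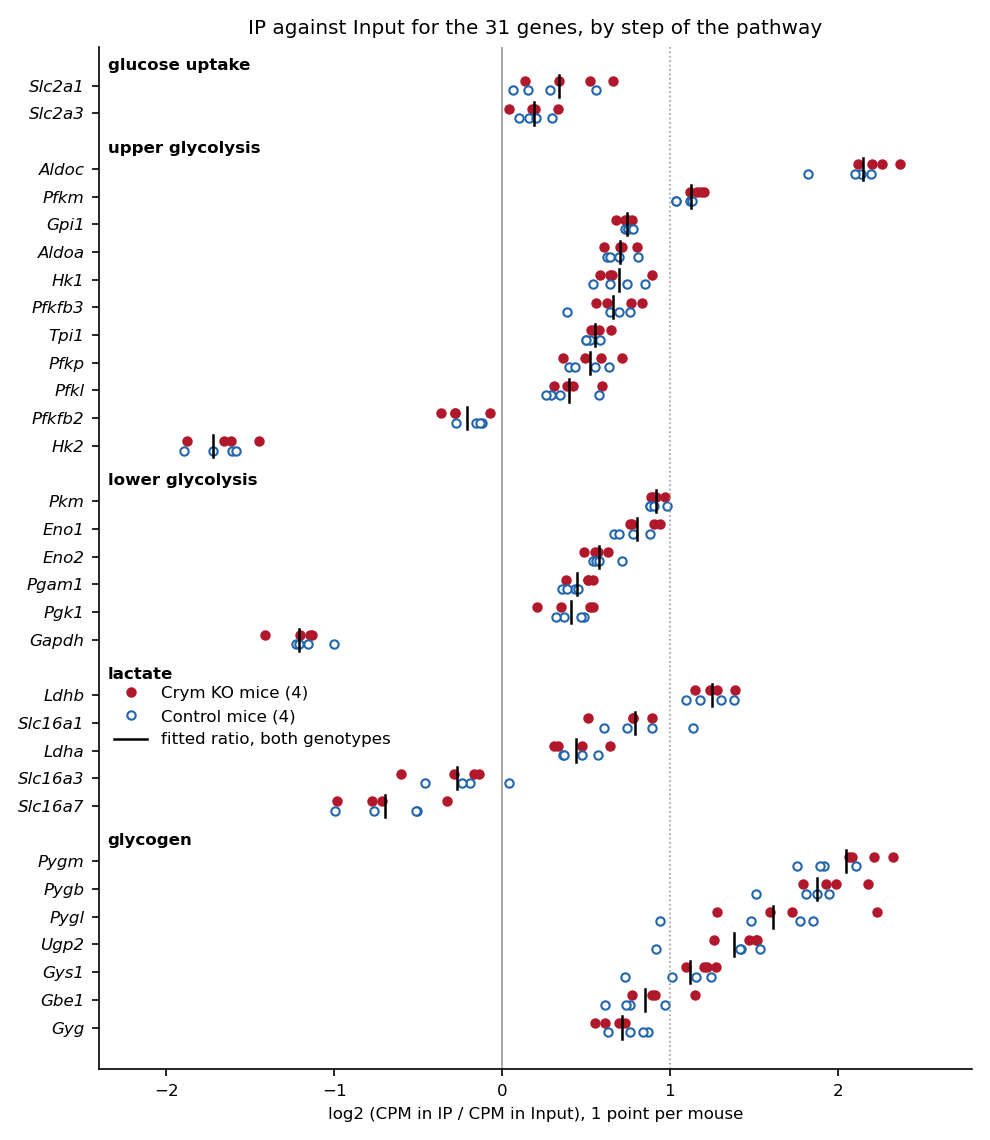
Log2 ratio of IP over Input (x axis, from CPM) for each of the 31 genes, grouped by step, with 1 point per mouse (filled red for the 4 Crym KO mice, open blue for the 4 Control mice), a black bar for the fitted ratio and a dotted line at a 2-fold difference. Aldoc (2.15), Pygm (2.05) and Pygb (1.88) lie farthest to the right, and Slc16a7 (-0.70), Gapdh (-1.21) and Hk2 (-1.72) farthest to the left.

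The start regions of 4 of these genes are shown because they belong to isozyme pairs whose members moved apart, aldolase C and hexokinase 2 at the ends of the range and the lactate dehydrogenase subunits A and B. Each is 300 bases of RefSeq sequence on GRCm38.p6, 5′ to 3′ on the gene's strand, with 250 bases before an annotated start and 50 after it. Capitals mark ACGTG on either strand, so that it reads CACGT where it lies on the other strand. This short motif is the core of the sites bound by hypoxia-inducible factors and is contained in the E-box CACGTG, which counts as 2 matches, 1 on each strand.
Aldoc, chr11:78322823-78323122, plus strand, 1 match: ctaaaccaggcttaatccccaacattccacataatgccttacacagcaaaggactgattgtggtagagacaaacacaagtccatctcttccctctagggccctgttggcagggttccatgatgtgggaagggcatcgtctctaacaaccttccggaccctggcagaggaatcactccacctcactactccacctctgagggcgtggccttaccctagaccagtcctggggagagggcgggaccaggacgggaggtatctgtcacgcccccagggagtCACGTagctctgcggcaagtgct
Hk2, chr6:82774405-82774704, minus strand, 2 matches: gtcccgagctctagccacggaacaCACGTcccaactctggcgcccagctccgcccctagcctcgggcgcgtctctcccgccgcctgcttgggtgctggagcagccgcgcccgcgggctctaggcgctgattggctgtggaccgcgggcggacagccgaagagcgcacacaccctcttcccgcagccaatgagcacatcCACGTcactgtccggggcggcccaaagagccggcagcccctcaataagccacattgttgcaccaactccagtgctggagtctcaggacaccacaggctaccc
Ldha, chr7:46845554-46845853, plus strand, 5 matches: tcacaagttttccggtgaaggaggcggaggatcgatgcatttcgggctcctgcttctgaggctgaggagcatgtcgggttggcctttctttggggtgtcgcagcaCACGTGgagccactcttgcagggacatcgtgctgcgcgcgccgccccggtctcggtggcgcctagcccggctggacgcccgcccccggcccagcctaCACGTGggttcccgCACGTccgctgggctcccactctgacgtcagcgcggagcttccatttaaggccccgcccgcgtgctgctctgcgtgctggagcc
Ldhb, chr6:142507908-142508207, minus strand, 0 matches: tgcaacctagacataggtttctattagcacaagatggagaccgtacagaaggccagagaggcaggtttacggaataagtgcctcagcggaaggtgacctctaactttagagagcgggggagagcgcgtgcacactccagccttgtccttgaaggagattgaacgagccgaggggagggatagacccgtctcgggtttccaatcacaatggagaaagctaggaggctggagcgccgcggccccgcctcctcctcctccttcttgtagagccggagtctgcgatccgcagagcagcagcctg

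Aldoc and Ldha each have 2 annotated starts, and the upstream one is shown. Of the 29 genes with a sequence in the table, 20 (68.97%) held the motif in at least 1 start region, against 5886 of 27025 genes (21.78%). Counted by start region, 24 of 44 (54.55%) held it, against 6447 of 32851 (19.62%). The genes with 0 matches were Gpi1, Pfkl, Pfkp, Tpi1, Eno1, Eno2, Ldhb, Gys1 and Gbe1, which all rose in IP, as did 26 of the 31 genes in all. Of the genes with a match, Hk2, Pfkfb2, Gapdh and Slc16a3 fell in IP and all others rose. A link between match and direction was not tested. A match is a description of these letters only. Slc2a3 and Slc16a7 had no entry.

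Glucose uptake differed least between IP and Input. Slc2a1 (ENSMUSG00000028645, chr4:119108711-119137983, plus strand), which encodes GLUT1, had a lowest, median and highest level of 36.9, 45.0 and 55.8 CPM in IP, against 29.4, 36.1 and 39.4 CPM in Input. Slc2a3 (ENSMUSG00000003153, chromosome 6), which encodes GLUT3, had 154, 174 and 184 CPM in IP, against 144, 150 and 161 CPM in Input. In both genes the highest Input libraries lay above the lowest IP library. The log2 ratio was 0.34 ± 0.06 (SE) for Slc2a1 (adjusted p = 0.000105) and 0.19 ± 0.03 for Slc2a3 (adjusted p = 9.60e-05, both limma-voom), but that of Slc2a3 was 0.03 with upper-quartile scaling and turned to -0.0024 with scaling by library size alone.

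Upper glycolysis, from hexokinase to triosephosphate isomerase, had 9 genes that rose in IP and 2 that fell, with a median log2 ratio of 0.66 over its 11 genes. Its summed level was 7716 to 7880 CPM in Crym KO IP and 7229 to 7760 CPM in Control IP, against 3576 to 3734 CPM in Crym KO Input and 3629 to 3789 CPM in Control Input. Its most abundant genes were the aldolases, which split fructose 1,6-bisphosphate. Aldoc (ENSMUSG00000017390, chr11:78322968-78327781, plus strand) encodes aldolase C, the isozyme of astrocytes. It had 2908, 2857, 2485 and 2860 CPM in Crym KO IP and 2946, 2066, 2437 and 2817 CPM in Control IP, against 631, 596, 573 and 552 CPM in Crym KO Input and 642, 584, 554 and 656 CPM in Control Input. All 8 IP libraries stood above all 8 Input libraries, and the lowest of the IP libraries was Control mouse 2, which was also the lowest in astrocyte markers. The fitted difference was 4.45-fold (log2 2.15, 95% interval 2.02 to 2.29, adjusted p = 2.75e-14 by limma-voom), and it was 2.21 on the log2 scale without that library. Aldoa, the isozyme of muscle and most other tissues, had 1957 to 2174 CPM in IP, against 1211 to 1301 CPM in Input, and rose by 0.70 on the log2 scale.

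The hexokinases, which trap glucose as glucose 6-phosphate, moved in opposite directions. Hk1, the main hexokinase of the brain, had 429 to 520 CPM in IP (median 464), against 280 to 303 CPM in Input (median 291), and rose by 0.70 on the log2 scale. Hk2, the insulin-responsive hexokinase of muscle and fat, had 2.32, 2.72, 2.17 and 1.54 CPM in Crym KO IP and 1.99, 2.52, 2.05 and 1.91 CPM in Control IP, against 7.30, 7.59, 7.08 and 5.93 CPM in Crym KO Input and 6.77, 7.89, 7.92 and 5.93 CPM in Control Input. Every IP library lay below every Input library. Hk2 fell by 1.72 on the log2 scale in IP (95% interval -1.96 to -1.49, adjusted p = 2.34e-10 by limma-voom), the largest fall among the 31 genes.

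Phosphofructokinase, the committed step of glycolysis, is built from 3 kinds of subunit, and all rose. Pfkm, the muscle-type subunit, had 597 to 664 CPM in IP (median 637), against 275 to 305 CPM in Input (median 292), with a log2 ratio of 1.13 ± 0.03 (adjusted p = 4.99e-15 by limma-voom). Pfkp, the platelet-type subunit, had medians of 490 CPM in IP and 332 CPM in Input (log2 ratio 0.52), and Pfkl, the liver-type subunit, had 193 and 146 CPM (log2 ratio 0.40). The muscle-type subunit thus had the largest rise, and it was above the platelet-type subunit in IP but below it in Input in CPM. Per kilobase of exon, the muscle-type subunit was above the platelet-type subunit in both fractions, as given below. The bifunctional enzymes that make and remove fructose 2,6-bisphosphate, the activator of phosphofructokinase, split. Pfkfb3, the glycolysis-promoting isozyme, rose by 0.66 on the log2 scale (medians 67.7 CPM in IP and 45.0 CPM in Input), and Pfkfb2 fell by 0.21 (medians 22.0 CPM in IP and 25.1 CPM in Input, adjusted p = 3.96e-05 by limma-voom). The isomerases at either side rose moderately. Gpi1, which forms fructose 6-phosphate, had medians of 488 CPM in IP and 295 CPM in Input (log2 ratio 0.74), and Tpi1, which interconverts the triose phosphates, had 584 and 400 CPM (log2 ratio 0.55).

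In lower glycolysis 5 of 6 genes rose, with a median log2 ratio of 0.51. Pkm, the pyruvate kinase of the brain, was the most abundant, at 1764 to 1866 CPM in IP and 939 to 998 CPM in Input, and rose by 0.92. Eno1 and Eno2 encode enolases, of which Eno2 is the form used as a neuronal marker. Eno2 had 984 to 1087 CPM in IP, against 662 to 703 CPM in Input (log2 ratio 0.58), and Eno1 had 172 to 187 CPM, against 94.2 to 108 CPM (log2 ratio 0.80). Pgk1, which makes the first ATP of the pathway, rose by 0.41 on the log2 scale (medians 23.85 CPM in IP and 17.96 CPM in Input). Pgam1, the phosphoglycerate mutase, rose by 0.45 (medians 29.0 and 21.9 CPM).

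Gapdh, which encodes glyceraldehyde-3-phosphate dehydrogenase (ENSMUSG00000057666, chr6:125161715-125166467, minus strand), was the sixth gene and fell in IP. It had 2.83, 2.81, 2.36 and 2.696 CPM in Crym KO IP and 2.68, 3.01, 2.67 and 2.81 CPM in Control IP, against 6.36, 6.27, 6.45 and 6.33 CPM in Crym KO Input and 6.43, 6.12, 6.30 and 6.37 CPM in Control Input. The fractions did not overlap (log2 ratio -1.21 ± 0.05, adjusted p = 1.29e-12 by limma-voom). These levels came from only 3770 counts over all 16 libraries for a gene that every cell uses, and only uniquely mapped reads were counted, so the level is uncertain. A stretch of the Gapdh coding sequence is shown for this reason, with GENCODE transcript bases 641 to 749 on GRCm38 and a 69-base window in capitals that occurs letter for letter in 54 other annotated genes.
Gapdh: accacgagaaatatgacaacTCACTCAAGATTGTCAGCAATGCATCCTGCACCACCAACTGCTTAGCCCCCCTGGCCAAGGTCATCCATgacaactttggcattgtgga

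All 931 windows of that length in the Gapdh coding sequence (100%) occurred in at least 1 other annotated gene, and over the whole transcript 80.8% did. Of the other annotated genes in the count table, 127 share such windows, but 71.4% of their 38135 counts belong to Peli2, which shares only 2.44% of the windows. The sum was therefore limited, after its values were seen, to the 68 genes that share at least 5% of the windows. Their summed level was 6.71, 7.32, 9.61 and 7.14 CPM in Crym KO IP and 7.67, 7.67, 7.72 and 7.75 CPM in Control IP, against 5.06, 5.53, 4.33 and 5.64 CPM in Crym KO Input and 5.81, 5.23, 4.94 and 4.68 CPM in Control Input. Unlike Gapdh, this sum was higher in IP, with no overlap between the fractions, although not every gene in it was. The fall of Gapdh is therefore a statement on the few reads assigned to its own record. How many reads of Gapdh were left out or assigned to other genes was not tested. Other genes with much shared sequence were Pgk1 (67.6% of windows), Eno1 (67.1%) and Pgam1 (40.8%), and the summed levels of the genes that share at least 5% of their windows were also higher in IP, for example 79.6 ± 2.4 CPM in Crym KO IP and 76.1 ± 3.6 CPM in Control IP, against 41.1 ± 1.9 CPM in Crym KO Input and 42.1 ± 2.8 CPM in Control Input for 2 such genes of Eno1 (SD, n = 4 each). The levels of these genes are likewise uncertain.

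**Figure D2:**
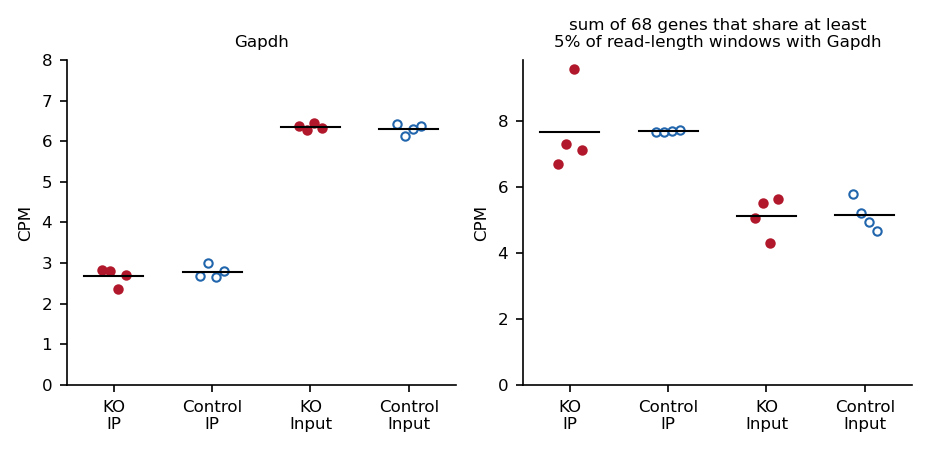
CPM (y axis) of Gapdh and of the sum of the 68 annotated genes that share at least 5% of its 69-base windows, with 1 point per library in Crym KO IP, Control IP, Crym KO Input and Control Input (n = 4 each). Gapdh stands at 2.36 to 3.01 CPM in IP and 6.12 to 6.45 CPM in Input, while the sum stands at 6.71 to 9.61 CPM in IP and 4.33 to 5.81 CPM in Input.

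Of the 5 genes of lactate formation and transport, 3 rose in IP and 2 fell. Ldhb, the lactate dehydrogenase subunit of heart-type enzyme, had 575, 596, 573 and 617 CPM in Crym KO IP and 667, 541, 550 and 634 CPM in Control IP, against 244, 245, 258 and 236 CPM in Crym KO Input and 270, 253, 243 and 243 CPM in Control Input. No IP library came near the Input range, and the difference was 2.38-fold (log2 1.25, 95% interval 1.16 to 1.34, adjusted p = 1.08e-13 by limma-voom). Ldha, the subunit of muscle-type enzyme, rose less, by 0.44 on the log2 scale (205 to 248 CPM in IP, against 159 to 179 CPM in Input). The subunits, whose start regions are printed above, thus both rose, and their ratio is tested below.

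The monocarboxylate transporters separated by isoform. Slc16a1, which encodes MCT1, had 81.5, 93.4, 67.4 and 79.0 CPM in Crym KO IP and 109, 80.1, 78.2 and 77.8 CPM in Control IP, against 47.4, 50.2, 47.2 and 45.9 CPM in Crym KO Input and 49.5, 43.1, 46.7 and 51.0 CPM in Control Input. It rose by 0.79 ± 0.07 on the log2 scale, and its highest value was that of Control mouse 1. Slc16a7, which encodes MCT2, the transporter ascribed to neurons, had 55.2, 58.6, 71.5 and 52.4 CPM in Crym KO IP and 44.4, 64.4, 62.99 and 47.3 CPM in Control IP, against 90.5, 101, 89.7 and 104 CPM in Crym KO Input and 88.8, 91.5, 89.9 and 80.3 CPM in Control Input. All 8 of its IP libraries lay below its Input libraries, and it fell by 0.70 on the log2 scale (SE 0.08, adjusted p = 4.07e-07 by limma-voom). Slc16a3, which encodes MCT4, the lactate exporter of glycolytic cells, was rare in both fractions, at 1.77 to 2.90 CPM in IP and 2.46 to 3.35 CPM in Input. Its libraries overlapped, and its fall of log2 -0.27 (adjusted p = 0.0206 by limma-voom) was lost without Crym KO Input 2 (-0.24, adjusted p = 0.0501) or without Control Input 3 (-0.23, adjusted p = 0.0530). In Crym KO mice alone it passed in 7 alternatives, at adjusted p values of 0.00443 to 0.0469 and at 0.0304 with the mouse as a replicate block (log2 -0.32), and in Control mice alone it passed with upper-quartile (0.0250) and library size scaling (0.0148).

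All 7 genes of glycogen metabolism rose in IP, 5 of them more than 2-fold, and their median log2 ratio of 1.38 was above that of each other step. Their summed level was 1053, 1115, 963 and 1164 CPM in Crym KO IP and 1107, 791, 973 and 1089 CPM in Control IP, against 324, 330, 328 and 317 CPM in Crym KO Input and 331, 328, 322 and 346 CPM in Control Input. The lowest sum in IP was again that of Control mouse 2, and it still lay far above every Input sum.

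Glycogen phosphorylase releases glucose 1-phosphate from glycogen, and its 3 isozymes were among the 4 genes with the largest rises. Pygb, the brain-type isozyme (ENSMUSG00000033059, chr2:150786735-150831758, plus strand), had 621, 644, 556 and 714 CPM in Crym KO IP and 628, 459, 568 and 655 CPM in Control IP, against 163, 162, 160 and 158 CPM in Crym KO Input and 162, 161, 162 and 179 CPM in Control Input. Pygm, the muscle-type isozyme (ENSMUSG00000032648, chr19:6384399-6398459, plus strand), had 79.5, 88.4, 78.2 and 79.3 CPM in Crym KO IP and 101, 72.1, 68.1 and 84.5 CPM in Control IP, against 18.7, 19.0, 18.6 and 15.7 CPM in Crym KO Input and 23.4, 21.3, 17.9 and 22.7 CPM in Control Input. Neither isozyme overlapped between fractions. Pygm rose 4.14-fold (log2 2.05 ± 0.08, adjusted p = 6.49e-13) and Pygb 3.68-fold (log2 1.88 ± 0.06, adjusted p = 9.89e-14, both limma-voom). Pygl, the liver-type isozyme, was rare but rose as well, at 10.8 to 17.3 CPM in IP, against 3.44 to 5.57 CPM in Input (log2 ratio 1.62 ± 0.12).

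The enzymes that build glycogen rose too. Ugp2, which makes the UDP-glucose used for it, had 240, 266, 225 and 258 CPM in Crym KO IP and 253, 168, 231 and 234 CPM in Control IP, against 86.3, 92.7, 93.8 and 90.3 CPM in Crym KO Input and 87.3, 89.0, 85.9 and 87.4 CPM in Control Input (log2 ratio 1.38 ± 0.06, adjusted p = 4.57e-12 by limma-voom). Gys1, the glycogen synthase of tissues other than liver, had 26.3 to 38.8 CPM in IP (median 35.2), against 14.6 to 16.3 CPM in Input (median 15.5), with a log2 ratio of 1.12 ± 0.07. In both genes Control IP 2 was the lowest IP library. Gbe1, the branching enzyme, rose by 0.85 on the log2 scale (medians 31.5 CPM in IP and 18.2 CPM in Input) and Gyg, the primer protein glycogenin, by 0.71 (medians 29.9 and 18.3 CPM). Without Control IP 2, the log2 ratios of Pygb, Pygm, Pygl, Ugp2 and Gys1 were 1.94, 2.08, 1.69, 1.45 and 1.18, and all 31 genes kept their calls. With upper-quartile scaling, which moved the median of all genes to -0.18, Pfkm and Gys1 were at 0.96 each and no longer more than 2-fold higher. Gys1 shares 310 bases of exon with Ruvbl2 on the other strand, and whether counting used strand is not given in the sources used here. Among the other genes, Pfkp shares 748 bases with Pitrm1, Pfkfb2 154 with Yod1 and Gapdh 68 with Iffo1, all on the other strand. Pfkfb2 also shares 1262 bases with Gm29427 on its own strand. The part of these overlaps in the counts was not tested.

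Because library scaling cancels in a ratio within a library, isozymes were also compared as log2 ratios of their CPM in IP minus the same in Input of the same mouse. Of 12 pairs, 11 shifted at an adjusted p below 0.05 by an exact two-sided sign-flip permutation test over the 8 mice. Pairs of other genes were not compared in this way, so the 11 have no background share beside them. Of all genes tested, 40.3% rose in IP and 42.3% fell. The largest shift was that of Hk1 over Hk2, 2.37 ± 0.19 (SD, n = 8), with mice between 2.09 and 2.64 (exact p = 0.0078, the smallest that 256 arrangements allow, adjusted p = 0.0104 over the pairs). Slc16a1 over Slc16a7 shifted by 1.49 ± 0.38, and Aldoc over Aldoa by 1.45 ± 0.21 with the same exact permutation p. The mean aldolase ratio changed sign, at 0.37 in IP and -1.08 in Input, although Aldoc stayed below Aldoa in Control IP 2. The mean ratio of Slc16a1 over Slc16a7 was 0.55 in IP and -0.94 in Input, with Crym KO IP 3 as the exception. Pfkm over Pfkp was at 0.39 in IP and -0.22 in Input, and changed sign in all 8 mice. These signs compare CPM, which does not allow for gene length. Per kilobase of exon, Pfkm was above Pfkp in both fractions (medians 191 and 36.6 in IP, 87.3 and 24.7 in Input). Slc16a1 was likewise above Slc16a7 in both (17.97 and 4.81 in IP, 10.69 and 7.62 in Input).

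Smaller shifts in the same direction in all 8 mice were those of Pfkfb3 over Pfkfb2 (0.87), Ldhb over Ldha (0.81), Pfkm over Pfkp (0.60), Slc16a3 over Slc16a7 (0.44), Eno1 over Eno2 (0.22) and Pygb over Pygm (-0.17), each at the smallest possible p. Pygl over Pygb (-0.27) and Pfkl over Pfkp (-0.12) went one way in 7 of 8 mice (exact permutation p = 0.0156, adjusted p = 0.0171). Slc2a1 over Slc2a3 shifted by 0.15 ± 0.30, with mice on both sides of 0 (exact permutation p = 0.188). The glucose transporters were thus the pair whose balance did not pass the test.

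Expressed as a share of the family's level per kilobase of exon, Aldoc made up 54.8% ± 2.6 of the aldolases in Crym KO IP and 52.4% ± 5.1 in Control IP, against 29.6% ± 0.7 in Crym KO Input and 29.8% ± 1.7 in Control Input (SD, n = 4 each). Hk2 made up 0.654% ± 0.145 of the hexokinases in Crym KO IP and 0.638% ± 0.048 in Control IP, against 3.29% ± 0.38 and 3.39% ± 0.44 in Crym KO and Control Input. Of the transporters MCT1, MCT2 and MCT4, Slc16a1 made up 76.6% ± 4.4 in Crym KO IP and 79.0% ± 5.1 in Control IP, against 55.4% ± 1.8 in Crym KO Input and 57.5% ± 3.0 in Control Input. In each of these families the IP and Input groups were separated by more than their SDs and the genotypes were not. Ldhb was the larger share of lactate dehydrogenase everywhere, at 84.4% in Crym KO IP and 84.8% in Control IP, against 75.4% in Crym KO Input and 76.4% in Control Input. Pygb made up 82.7% of the phosphorylases in Crym KO IP and 81.4% in Control IP, against 84.3% in Crym KO Input and 82.5% in Control Input, so it was the main isozyme in every group. With the longest transcript as the length, the Aldoc share was 43.1% in Crym KO IP and 40.7% in Control IP, so which aldolase is the more abundant in IP depends on the transcript length used.

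**Figure D3:**
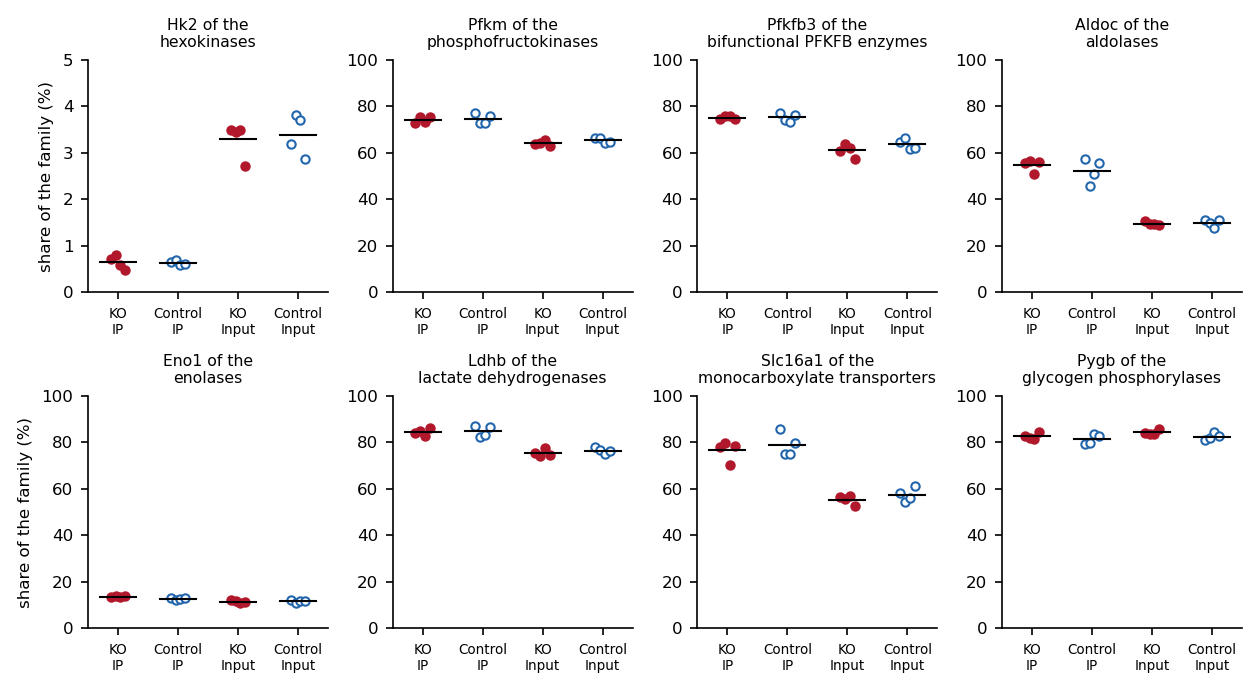
Share of an isozyme in its family's summed CPM per kilobase of exon (y axis, percent), in 8 panels, with 1 point per library and a line at the mean of each group of 4, in the order Crym KO IP, Control IP, Crym KO Input, Control Input. The Aldoc share is 54.8% and 52.4% in the IP groups against 29.6% and 29.8% in the Input groups, and the Hk2 panel runs only to 5% because the Hk2 share lies between 0.483% and 3.81% in the 16 libraries.

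Levels per kilobase of exon spanned more than 3 orders of magnitude among the 31 genes. In IP the order was led by Aldoc (median 870 CPM per kilobase, libraries 633 to 903) and Aldoa (703, libraries 672 to 747), which overlapped, followed by Ldhb (373, 345 to 425) and Pkm (366, 353 to 373), which also overlapped. Eno2 (217), Tpi1 (212), Pfkm (191), Pygb (130), Ugp2 (77.1), Gpi1 (75.6), Ldha (69.4), Hk1 (54.4), Pfkp (36.6), Eno1 (33.4) and Pfkl (28.9) came next. In Input the leading genes were Aldoa (439), Pkm (194) and Aldoc (181). The gene of astrocyte aldolase was thus at rank 1 in IP and rank 3 in Input.

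The middle of the order held Pygm (24.7 CPM per kilobase in IP and 5.85 in Input), Slc2a3 (24.0 and 20.8), Slc16a1 (17.97 and 10.69), Pgam1 (14.7 and 11.0), Slc2a1 (12.8 and 10.3), Gyg (12.8 and 7.81) and Pgk1 (10.6 and 8.01). Pygm moved up most among these, at rank 16 in IP and rank 24 in Input. Below them stood Pfkfb3 (8.95 and 5.95), Gys1 (7.35 and 3.24), Gbe1 (5.89 and 3.39), Slc16a7 (4.81 and 7.62), Pfkfb2 (3.04 and 3.46) and Pygl (2.14 and 0.685). The lowest levels in IP were those of Gapdh (0.666 in IP and 1.54 in Input), Slc16a3 (0.463 and 0.536) and Hk2 (0.354 and 1.21), of which Gapdh is uncertain for the reason given above. The lowest libraries of Slc16a3 lay within the range of Hk2 in IP. With the longest transcript as the length, Aldoa (1320) came before Aldoc (1018).

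**Figure D4:**
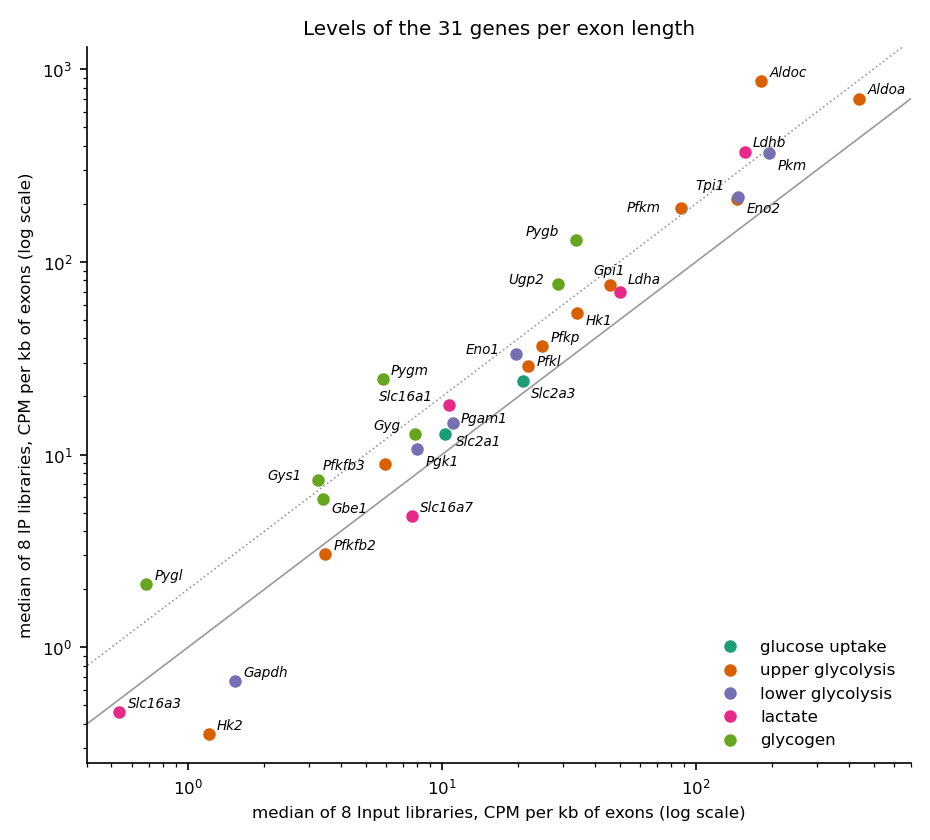
Median CPM per kilobase of exon over the 8 IP libraries (y axis, log scale) against the median over the 8 Input libraries (x axis, log scale), with 1 point per gene, coloured by step, a solid line for equal levels and a dotted line for a level 2-fold higher in IP. Aldoc lies at 870 in IP and 181 in Input, and Hk2 at 0.354 in IP and 1.21 in Input.

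No difference between Crym KO and Control mice was called in any of the 31 genes. In IP, 0 of 31 passed limma-voom at an adjusted p below 0.05 against 7 of 20645 genes (0.0339%) called, and 0 of 31 had an unadjusted p below 0.05, against 1583 of all genes. In Input, 0 of 31 passed, against 2 genes (0.00969%) called, and 1 had an unadjusted p below 0.05, against 1459 of all genes. The difference of the Crym KO effect between IP and Input was called in 0 genes (0%) and had 0 of the 31 at an unadjusted p below 0.05, against 704 of all genes. edgeR's quasi-likelihood test and DESeq2 also called 0 of the 31 in each. Crym itself, the targeted gene, was not called by limma-voom for the difference of the Crym KO effect between IP and Input (log2 -1.19). That comparison therefore cannot show that the Crym KO effect on the 31 genes was alike in IP and Input. With the replicate number as a block, the counts over all genes were 43 in IP and 15 in Input, still with 0 of the 31, and without Control IP 4 or Control IP 3 the count in IP was 36 or 11. Over all 992 alternative values for the 31 genes, the lowest adjusted p was 0.217.

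The 95% intervals bound how large a difference these libraries allow. In IP they ran between log2 -0.38 and 0.41, both for Hk2, and in Input between -0.55 for Pygl and 0.37 for Slc16a7. All 31 intervals lay within a 1.5-fold difference in both fractions. The median log2 ratio over the 31 genes was 0.01 in IP and -0.03 in Input.

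The gene with the smallest unadjusted p was the GLUT1 gene in Input. Slc2a1 had 34.5, 32.6, 33.6 and 29.4 CPM in Crym KO Input, against 37.8, 39.4, 37.9 and 38.0 CPM in Control Input, so that the genotypes did not overlap. Its log2 ratio was -0.23 ± 0.09 (SE), with a limma-voom p of 0.0221 and an adjusted p of 0.654. In IP it had 43.7, 47.0, 36.9 and 46.6 CPM in Crym KO mice, against 55.8, 41.2, 42.2 and 46.3 CPM in Control mice, which overlapped. The largest positive value in IP was that of Ugp2 (log2 0.17, adjusted p = 0.682 by limma-voom), for which the levels were given above and Control mouse 2 was the lowest. The largest negative value in IP was that of Pgk1 (log2 -0.11, adjusted p = 0.736).

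No isozyme ratio passed between genotypes after adjustment over the 12 pairs of a fraction. With 4 mice against 4, the smallest two-sided p of the exact permutation test is 0.0286. Most of the 12 pairs of a fraction would have to reach that p for any to pass the adjustment. The lack of a call therefore cannot show that the ratios were alike between genotypes. In the 2 fractions, 3 comparisons reached the smallest p. They were Eno1 over Eno2 in IP (log2 difference 0.10, adjusted p = 0.343) and, in Input, Slc2a1 over Slc2a3 (-0.26) and Pfkm over Pfkp (-0.12, adjusted p = 0.171 for both). The markers of oligodendrocytes had a median log2 ratio of -0.35 between Crym KO IP and Control IP, with 10 of 10 lower, 8 at an unadjusted p below 0.05 and 0 called. In Input, the markers of medium spiny neurons had a median of 0.23, with 10 of 10 higher in Crym KO mice, 5 at an unadjusted p below 0.05 and 0 called. Astrocyte markers had a median of 0.12 in IP, with 13 of 14 higher in Crym KO mice, 2 at an unadjusted p below 0.05 and 0 called. In Input their median was -0.03, with 6 of 14 higher. The part of these marker differences in the values above was not tested.

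**Figure D5:**
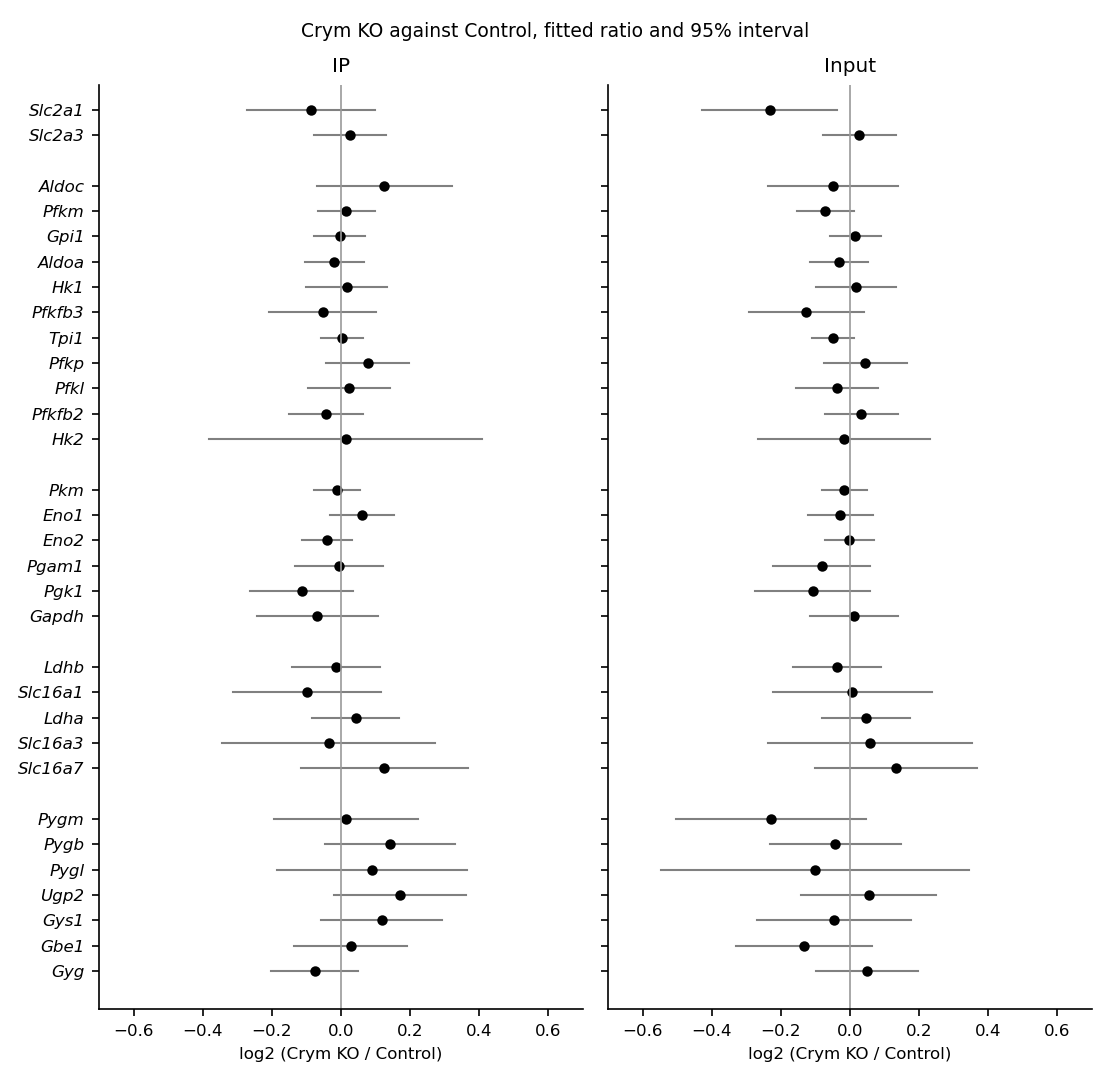
Fitted log2 ratio of Crym KO over Control with its 95% interval (x axis) for each of the 31 genes, in IP (left panel) and in Input (right panel), 4 mice in each genotype. All intervals lie within a 1.5-fold difference, between -0.38 and 0.41 in IP and between -0.55 and 0.37 in Input.

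Other genes of the pathway were taken from lists, to be read beside the 40.3% of all genes tested that rose in IP and the 42.3% that fell. Of 19 further isozymes and regulators of glycolysis, 13 were tested, of which 5 rose in IP and 7 fell, with a median log2 ratio of -0.10. Hk3, a hexokinase of blood cells, fell by 3.53 on the log2 scale, and Ldhd, a D-lactate dehydrogenase, Bpgm, the bisphosphoglycerate mutase, and Tigar, a fructose bisphosphatase, rose by 0.76, 0.58 and 0.46. Of 19 further carriers of glucose and monocarboxylates, 15 were tested, of which 6 rose and 5 fell (median 0.13). Slc2a5, the fructose transporter of microglia, fell by 2.65 and Slc16a6 by 0.57, while Slc2a4, the insulin-responsive transporter GLUT4, and Slc2a10 rose by 2.17 and 2.06.

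Regulators of glycogen metabolism were a further list. Of its 23 genes, all tested, 14 rose in IP, 7 of them more than 2-fold, and 6 fell, with a median log2 ratio of 0.40. Over all genes tested, 40.3% rose, 7.59% were more than 2-fold higher and 42.3% fell. Pgm1, which links glucose 1-phosphate to glucose 6-phosphate, rose by 1.40 on the log2 scale. Phka1, a regulatory subunit of phosphorylase kinase, rose by 1.68, and Ppp1r3c and Ppp1r3g, which bring protein phosphatase 1 to glycogen, rose by 1.75 and 1.80. No gene of these lists was called between Crym KO and Control in IP or in Input by limma-voom.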

How the data were processed

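Striatal RNA of 8 mice was sequenced as IP and Input libraries, with rRNA depletion, TruSeq libraries and 69-base paired ends per the study's methods. The authors deposited 1 table of raw counts per gene, made with bcl2fastq 2.17, STAR and HTSeq on mm10 (GRCm38) per the submitters' notes, from uniquely mapped reads. Identifiers in the table are Ensembl's, although RefSeq is the gene model given in the methods, and whether counting used strand is not given in the sources used here. Of 48795 identifiers, 48349 were paired with a symbol through a GENCODE annotation of GRCm38. No 2 libraries held identical values.

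Groups were taken from the labels. Counts were filtered with filterByExpr, scaled by TMM and fitted with limma-voom (limma 3.58.1, edgeR 4.0.16, R 4.3.3) on 4 group means over 16 libraries, two-sided, with Benjamini-Hochberg adjustment over 20645 genes and a threshold of 0.05. The fit was tested on simulated data with 200 changed genes. It recovered 94% of 1.5-fold changes between IP and Input and 77% of those between Crym KO IP and Control IP. At 2-fold it recovered 99.5% and 98.5%. The simulation gave every gene the same spread, so these shares need not hold for the real libraries. CPM values use TMM-scaled library sizes, and CPM per kilobase uses the union of annotated exons. Isozyme ratios had 0.1 CPM added and were compared by exact permutation tests over all arrangements, with the Benjamini-Hochberg adjustment from scipy 1.17.1. All 31 genes are named, together with up to 4 genes of each list with the smallest p of IP against Input. The members and lists were chosen with earlier results of these data known.

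Alternatives were DESeq2 size factors, upper-quartile scaling, library size, no filter, edgeR's quasi-likelihood test, the DESeq2 1.42.0 Wald test, only the libraries compared, a replicate block, each library left out, pseudocounts of 0 and 0.5 CPM, and the longest transcript as length. For isozyme pairs, both libraries of a mouse were left out together. IP and Input of 1 number are 1 mouse by the labels, and their deviations from the group means correlated at 0.074 to 0.408. Crym KO IP 3 correlated more with the Input of another Crym KO mouse (0.142) than with its own (0.074). Each other IP library correlated most with its own Input. Between genotypes, libraries of 1 number correlated at 0.155 to 0.226 in IP and 0.057 to 0.180 in Input. The highest value between different numbers was 0.180 in IP and 0.115 in Input. Nothing else is shared by such a number in the labels. Depth per library was 39421209 to 62596661 counts.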

Additional observations from a re-analysis of the deposited data

Results flagged for a closer look

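In each of 124 groups of 4 libraries (31 genes in 4 groups), the gap between the most extreme library and its nearest neighbour was set against the range of the group. In 7 groups it exceeded Dixon's 95% critical value for 4 values, and chance gives about 1 in 20. Aldoc was low in Crym KO IP 3 (2485 CPM, others 2857 to 2908, gap 0.887 of the range). Pygm was high in Crym KO IP 2 (88.4 CPM, others 78.2 to 79.5, gap 0.866) and low in Crym KO Input 4 (15.7 CPM, others 18.6 to 19.0, gap 0.899). Slc16a1 was high in Control IP 1 (109 CPM, others 77.8 to 80.1, gap 0.914), and Gyg was low in Control IP 2 (26.8 CPM, others 31.6 to 32.7, gap 0.832). Slc2a1 was high in Control Input 2 (39.4 CPM, others 37.8 to 38.0, gap 0.901), and Pygb was high in Control Input 4 (178.5 CPM, others 160.9 to 162.4, gap 0.911). No library had more than 1 of these values. In no gene did all Crym KO mice move one way between IP and Input and all Control mice the other.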

How the results depend on the processing

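All 264 alternative counts of called members and isozyme pairs stayed within 1.5 times their own value as reported. They include the counts between genotypes, which were 0 as reported and 0 in each alternative. For the isozyme pairs between genotypes, the permutation test could hardly give another count. Of 713 alternative values of IP over Input for the 31 genes, 708 kept their direction and call, 4 lost the call and 1 reversed. The reversed one was Slc2a3, at -0.0024 with scaling by library size (-0.0021 in Crym KO and -0.0028 in Control mice), where the median of all genes moved to -0.21. The others were Slc2a3 with upper-quartile scaling (0.03) and Slc16a3 without the filter (-0.24), without Crym KO Input 2 (-0.24) and without Control Input 3 (-0.23). In Control mice alone, Slc2a1 lost its call with upper-quartile (0.11) and library size scaling (0.07). The number of genes over 2-fold was 6 with upper-quartile or library size scaling and 8 in each other alternative. With each library left out in turn, 30 to 31 genes were called, and with each mouse left out in turn, 11 isozyme pairs passed each time. With the replicate block, 31 were called in both genotypes and in Crym KO, 30 in Control and 0 between genotypes, and the block changed no other call than that of Slc16a3 in Crym KO mice. Between genotypes, the count over all genes was 68 in IP and 47 in Input with DESeq2, 2 and 0 with only the libraries compared, 8 and 7 without the filter, and 6 to 36 in IP and 0 to 3 in Input with each library left out, against 7 and 2. Of 144 alternative pair shifts, those with another pseudocount or with a mouse left out kept their call. Those in 1 genotype alone were not tested, and they lay within the SD over mice of the reported shift. Levels per kilobase moved beyond their spread in 26 of 31 genes with the longest transcript. Gapdh, Hk2, Slc16a3 and Pygl had the fewest counts. The summed genes that share windows with Gapdh were at log2 0.41 for IP over Input over all of them and at 0.58 over those that share at least 5%, a limit chosen after seeing the data. The causes were not tested.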

Other observations

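Neighbouring pathways were read in the same fit of IP against Input, each beside the 40.3% of all genes tested that rose and the 42.3% that fell. Of 12 genes of the pyruvate dehydrogenase complex, its kinases and phosphatases, and pyruvate carboxylase, 10 rose in IP and 1 fell, with a median log2 ratio of 0.68. Pdha1 and Dlat, subunits of the complex, rose by 0.80 and 0.59, Pdk4, a kinase that turns it off, by 1.93, and Pcx, the pyruvate carboxylase that astrocytes use to replenish the citric acid cycle, by 1.18. Of 10 genes that carry NADH equivalents into mitochondria, 9 rose and 0 fell (median 0.49), among them Got1 (0.63), Got2 (0.63), Mdh2 (0.59) and Slc25a12 (0.48).

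Of 9 genes of the pentose phosphate pathway, 6 rose in IP and 3 fell (median 0.58). G6pdx, the first enzyme, rose by 1.18 on the log2 scale, Tkt, a transketolase, by 1.16, Pgd by 0.68 and Taldo1 by 0.58. Of 13 targets of hypoxia-inducible factors outside glycolysis, 7 rose and 4 fell (median 0.27), with P4ha1 at 0.74, Kdm3a at 0.40, Higd1a at 0.28 and Egln1 at -0.30. No gene of these lists was called between Crym KO and Control in IP or in Input by limma-voom.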
